A study of Drosophila melanogaster with 4 samples.

Results

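The interval described here is a stretch of 600 kb of chromosome arm 3L of Drosophila melanogaster, from 17500001 to 18100000 on Release 5 of the genome, that holds the ecdysone puff genes Eip74EF, near its low end, and Eip75B, near its high end. Its members are the H1-enriched regions that overlap it: 10 of the 3779 regions of ChIP replicate 1, 11 of the 4665 of ChIP replicate 2 and 50 of the 18812 of the combined table, a list deposited for the series as a whole. On 3L the lists held 695, 859 and 3657 regions. An antibody to histone H1 was used for chromatin immunoprecipitation and sequencing (ChIP-seq) of wild-type Oregon-R larvae of the third instar. The 4 samples are 2 H1 ChIP and 2 input samples, and the input samples were not analysed here. All share this strain, genotype and stage. The labels give neither a time relative to the ecdysone pulses nor a dissected tissue, so the chromatin is treated as that of whole larvae.

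Ecdysone is the steroid hormone whose pulses time the moults and metamorphosis of the fly. It binds a receptor made of the nuclear receptors EcR and Usp, which switches on a small set of early genes. In the giant polytene chromosomes of the larval salivary gland these genes appear as puffs, local swellings where chromatin opens during transcription. Eip74EF encodes transcription factors of the ETS family, and Eip75B encodes nuclear receptors of the group that includes vertebrate Rev-erb. H1, the linker histone, binds nucleosomes and the DNA between them and helps to fold chromatin.

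The interval was proposed with earlier results of these data known, and its members were chosen by position. Its covered shares and empty stretches are given as a description, with no test. The place of each gene within it is as the selection rule states it. Gene names and order come from a table of Release 6, so no gene boundary was set against a region. In that table both genes were found by symbol. They were separated by 60 genes, 48 of them protein-coding, which run from Vps60 next to Eip74EF to lncRNA:CR45393 next to Eip75B. Among them are Crtc, a coactivator of CREB, the adenosine deaminase growth factors Adgf-A and Adgf-B, and Ir75a, Ir75b and Ir75c, members of the ionotropic receptor family of chemosensory receptors. Another 4 genes, CG32192, CG42393, lncRNA:CR45921 and lncRNA:CR45922, lie inside Eip75B.

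H1 regions were gathered in the centre of the interval and nearly missing from its high end. In the combined table the middle 200 kb, from 17700001 to 17900000, was covered to 36.0%, against 14.1% of the low 200 kb, where Eip74EF is placed, and 2.55% of the high 200 kb, where Eip75B is placed. Replicate 1 gave the same order, with 2.75% of the low, 8.27% of the middle and 0% of the high part. Replicate 2 gave 2.95%, 5.01% and 0.797%. The replicate means were 2.85 ± 0.148% for the low, 6.64 ± 2.31% for the middle and 0.398 ± 0.563% for the high part (SD, n = 2). Both replicates thus ranked the 3 parts alike, although they differed most in the middle one. The limit between the low and the middle part falls within the dense centre, however. From 17650001 to 17700000, the last 50 kb of the low part, the share was 44.0% in the combined table. It was 11.0% in replicate 1, which had no region in the rest of the low part, and 9.16% in replicate 2. The order of the low and the high part is therefore not a contrast between the places of the genes. For the whole arm the shares were 4.74% and 6.02% in the replicates and 29.9% in the combined table. The low and the high part lay below the arm in every list, and the middle part lay above it in replicate 1 and in the combined table, and below it in replicate 2. Such lists average over the cells of a sample, which the labels give as larvae with no tissue named, so fewer cells with H1 at a place and less H1 there in every cell cannot be told apart. Read depth is unknown from these lists, and whether reads can be placed equally well along the interval was not tested.

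**Figure D1:**
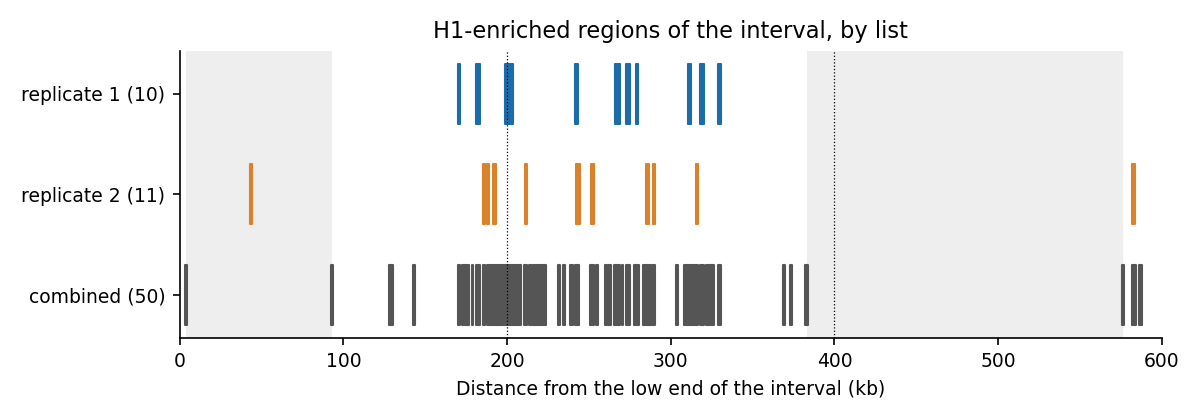
Map of the H1-enriched regions of replicate 1 (10), replicate 2 (11) and the combined table (50), as bars drawn to scale against the distance in kb from the low end of the interval. Grey bands are the 2 longest stretches without a combined region, of 88.3 and 192 kb, and dotted lines part the low, middle and high 200 kb; most bars lie between 150 and 350 kb.

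In steps of 50 kb the change was steep. The first 3 bins of the interval were covered to 2.61%, 2.01% and 7.69% in the combined table. The next 4 bins, from 150 to 350 kb along the interval, were covered to 44.0%, 52.5%, 47.6% and 36.1%. Then came 7.56%, followed by 3 bins with no combined region and a last one with 10.2%. The median of the 490 bins of 3L was 28.1%. The densest bin of the interval was thus not extreme, since 76 bins of the arm were covered more. An empty bin was rare: 13 of 490 bins, or 2.65%, held no combined region, and 3 of these 13 followed each other in the high part of the interval, the longest such row on the arm. Replicate 1 covered the 4 central bins to 11.0%, 9.75%, 12.3% and 11.1%, and had no region in the other 8. Replicate 2 covered them to 9.16%, 7.26%, 9.39% and 3.40%, and had regions elsewhere in the first bin (2.66%) and the last (3.19%). Empty bins were common in the single replicates, with 176 and 168 of the 490 bins of the arm.

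**Figure D2:**
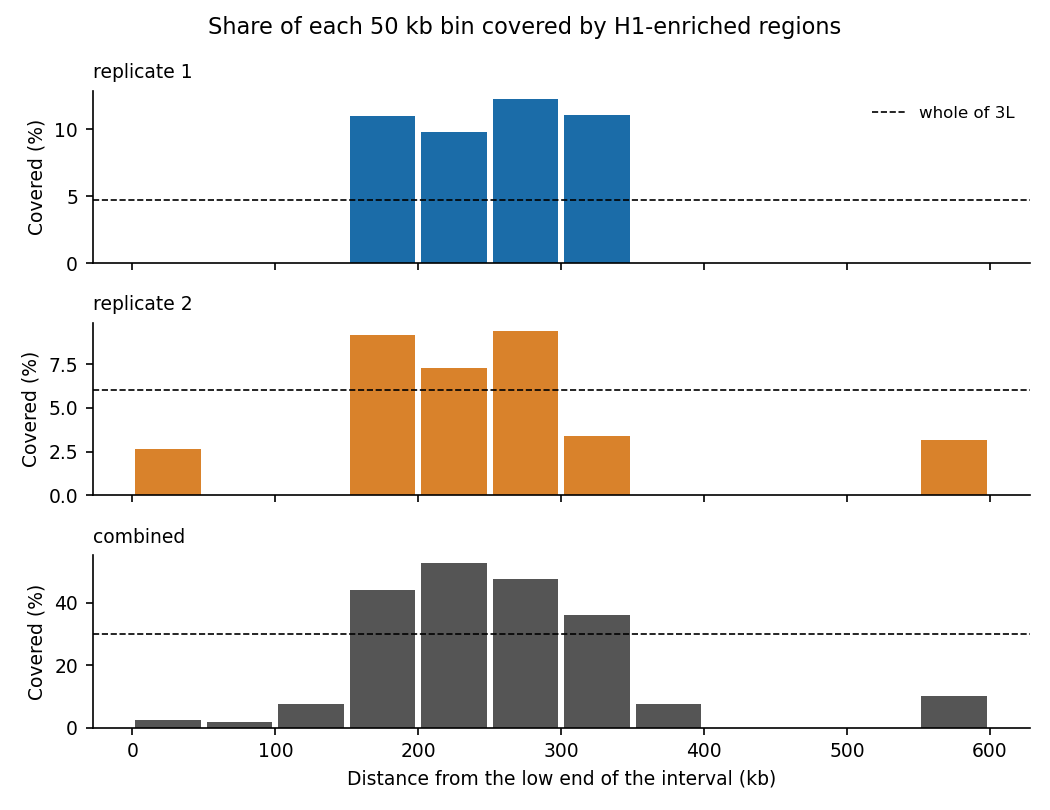
Covered share in percent of each of the 12 bins of 50 kb of the interval, against distance in kb from its low end, for each list, with the share of the whole of 3L as a dashed line. In the combined table the 4 bins from 150 to 350 kb stand at 36.1 to 52.5%, above the 29.9% of the arm, and the others at 10.2% or less.

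The longest stretch without H1 regions on 3L lay in the high part of the interval. No combined region was found from 17883911 to 18075743, a stretch of 192 kb that filled 87.9% of the high 200 kb. It ranked first of the 3657 empty stretches of 3L, ahead of one of 107 kb, and these were the only 2 of at least 100 kb on the arm. Over the 5 large arms it ranked second of 17381, after a stretch of 226 kb on the X. Neither replicate had a region inside it. On 3L, 98.6% of the regions of replicate 1 and 98.5% of those of replicate 2 overlapped a combined region. Their absence from a stretch without combined regions is thus largely fixed in advance. A stretch without called regions does not show that H1 was absent there. Replicate 1 was empty from 17830585 to 18112903, or 282 kb, the stretch of rank 4 among the 696 of that list on 3L. Replicate 2 was empty from 17816927 to 18081982, or 265 kb, of rank 9 among 860. The stretch thus stood out most in the combined table, the list with the most regions. Its first rank depended on which regions entered: with combined regions at or above the median score it was 256 kb and ranked 3, and with regions of at least 2000 bp it was 257 kb and ranked 5.

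A second long stretch lay in the low part of the interval. The combined table had no region from 17504439 to 17592703, or 88.3 kb, rank 5 of the 3657 on 3L. A single combined region of 1005 bp parted it from a further empty stretch of 34.1 kb, from 17593709 to 17627777. Replicate 1 was empty through the whole of the low end, from 17443828 to 17669794, or 226 kb. Replicate 2 had 1 region there, at 17542629 to 17543956, with a score of 0.423, higher than 2.53% of the scores of its list. That region was the only member of a replicate with no counterpart in the combined table. Stretches of 38.1 kb, from 17830529 to 17868623, and 25.8 kb, from 17643987 to 17669767, flanked the dense centre. Together, empty stretches of at least 20 kb filled 63.0% of the interval in the combined table, compared with 28.9% of 3L. In the 39 other windows of 600 kb this share had a median of 28.9% and a highest value of 57.0%. The number of such stretches, 5, equalled the median of those windows, so the interval had longer stretches and not more of them.

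**Figure D3:**
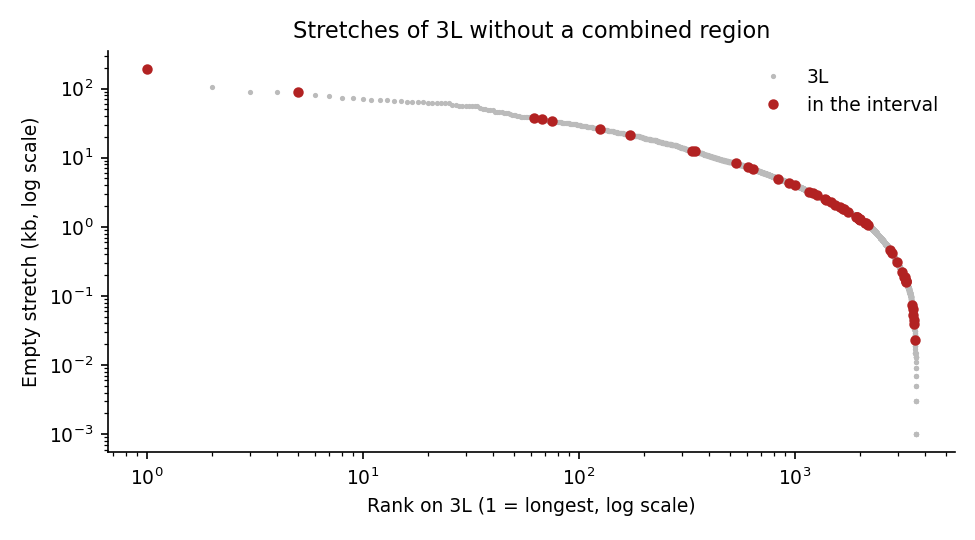
Length in kb of each of the 3657 stretches of 3L with no combined H1 region against its rank from the longest, both on log scales, with those that overlap the interval in red. The interval holds the stretches of rank 1 (192 kb) and rank 5 (88.3 kb).

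The dense centre was a run of 39 combined regions, 78% of those in the interval, from 17669768 to 17830528. A run joins regions less than 20 kb apart, a limit chosen after the values were seen. This run measured 161 kb, 26.8% of the interval, and its covered share was 56.1% in the combined table, 13.7% in replicate 1 and 9.08% in replicate 2. All 10 regions of replicate 1 and 9 of the 11 of replicate 2 overlapped it. Of the 88 runs of 3L with 10 or more regions, 37 were longer and 10 were covered more, and their median share was 42.2%. Neighbouring regions in the run were 1296 bp apart at the median, against 1562 bp over the arm, and 14 of 38 spaces, or 36.8%, were under 1000 bp, against 38.9% on the arm. These values lay near those of the arm, but the sets are unlike. By definition a run holds only spaces under 20 kb, and the arm holds all spaces. The spaces inside the other runs were not compared.

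As a whole the interval was poor in H1 regions, though not the poorest part of the arm. Regions covered 22.0 kb, or 3.67%, in replicate 1, 17.5 kb, or 2.92%, in replicate 2 and 105 kb, or 17.5%, in the combined table. The replicate mean was 3.30 ± 0.532%, from 10.5 ± 0.707 regions (SD, n = 2). Of the 39 other windows of equal size tiled along 3L, 8 had a lower replicate mean, and their median was 4.82%, so the interval stood at 0.683 times that median. Replicate 1 alone put 15 of the 39 windows lower, replicate 2 put 4 lower, and the combined table put 2 lower, with a range over those windows from 12.3 to 51.4%. The position in the order thus depended on the list. It also depended on which regions entered: with only regions whose score reached the median of their list, the interval stood at 0.956 times the median window, and with regions of at least 2000 bp at 0.907 times, in both cases above 46.2% of the windows. Windows of 1 arm share a library and are not replicates.

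Both neighbouring windows held more H1 regions. The window below, from 16900001 to 17500000, had 7.53% and 10.2% covered in the replicates and 38.5% in the combined table. For the window above, from 18100001 to 18700000, these shares were 3.47%, 5.59% and 30.4%. Replicate 1 thus covered the interval slightly more than the window above it, while the other lists covered it less. The 3 windows nearest to the interval in replicate mean, with 3.30%, 3.32% and 3.27%, began at 15100001, 15700001 and 19900001. Their combined shares were 26.0%, 24.1% and 25.1%, all above the 17.5% of the interval, and their longest empty stretches were 107, 88.4 and 41.5 kb, all shorter than its 192 kb. By the range of combined shares over their low, middle and high 200 kb, 7 of the 39 other windows were more uneven than the interval, whose range was 33.4 percentage points. By the excess of the middle 200 kb over the mean of both ends, 27.6 percentage points here, 3 were ahead of it.

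**Figure D4:**
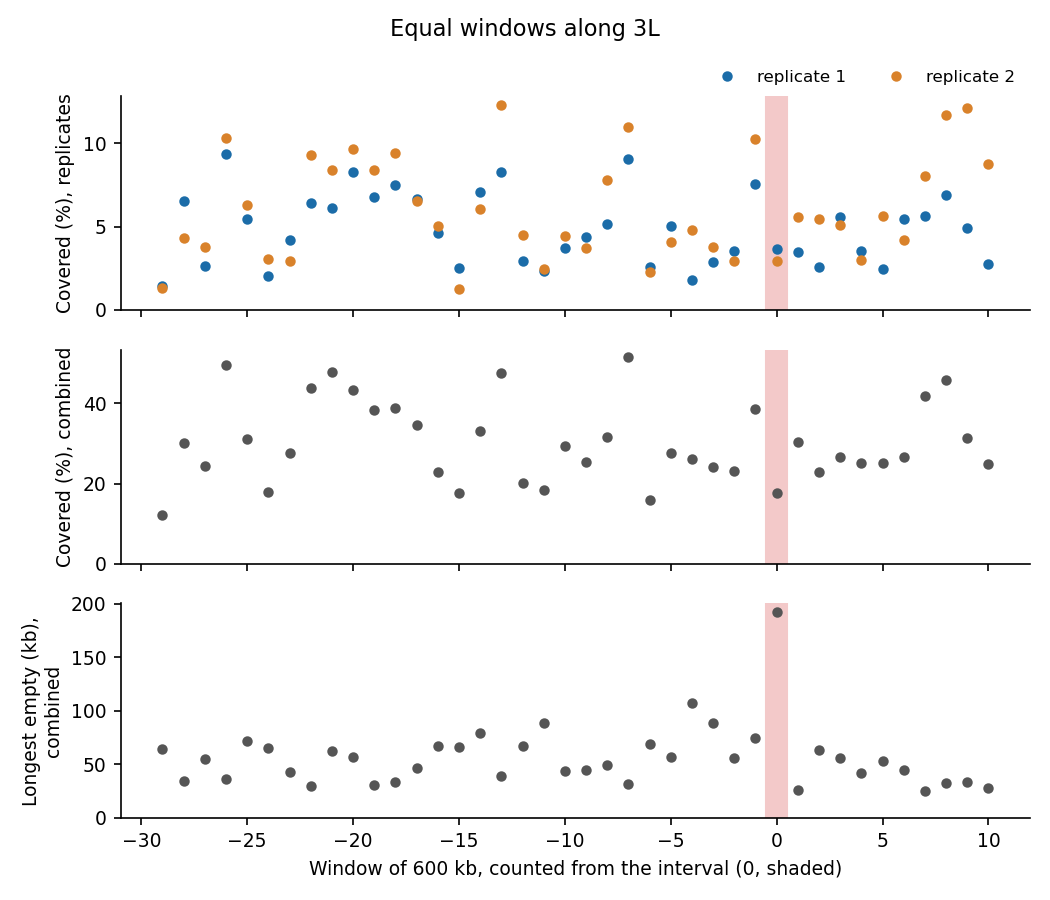
Covered share in percent of 40 windows of 600 kb along 3L in the replicates (top) and the combined table (middle), and the longest stretch in kb within each window without a combined region (bottom), against window number counted from the interval, which is shaded at 0. The interval lies in the lower range of covered share, at 3.67%, 2.92% and 17.5%, and has the longest empty stretch, at 192 kb against at most 107 kb.

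Just inside the low limit the first combined region ran from 17503136 to 17504438 with a score of 0.335, and the nearest one outside from 17465376 to 17466754 with 0.314. At the high limit the last one inside ran from 18085998 to 18087642 with 0.288, and the nearest outside from 18109232 to 18111226 with 0.383. No region of any list crossed either limit.

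The replicates marked the same part of the interval but seldom the same bases. Only 1 of the 10 replicate 1 regions met a replicate 2 region with 1 bp or more, which is 10% (1.79 to 40.4%, Wilson 95% interval), against 29.9% on 3L. From the side of replicate 2 it was 1 of 11, or 9.09% (1.62 to 37.7%), against 24.4%. These intervals count the regions of a library as independent and cover counting only, and with so few regions no difference from the arm is read from them. The shared block ran from 17742300 to 17743275, or 976 bp, which is 2.53% of the 38586 bp covered in either replicate, against 9.41% on 3L. From a region of replicate 1 to the nearest of replicate 2 the median distance was 4.97 kb, and 2.59 kb on the arm. In the other direction it was 5.19 kb, and 3.86 kb on the arm. Such distances and the share of shared bases also depend on how densely regions lie. The interval held 16.7 regions per Mb in replicate 1 and 18.3 in replicate 2, against 28.3 and 35.0 on 3L. Poorer agreement of the replicates than on the arm is therefore not read from these values.

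Nearly all replicate regions overlapped a combined region. This held for 10 of 10 regions of replicate 1 and 10 of 11 of replicate 2, against 98.6% and 98.5% on 3L. Their ends lay at a median of 333 bp from the outer ends of the combined regions they met in replicate 1 and 120 bp in replicate 2. Of 20 ends in each, 7 and 10 lay within 100 bp, and the largest distances were 4649 and 7077 bp. In the other direction, 12 of the 50 combined regions, or 24% (95% Wilson interval 14.3 to 37.4%), overlapped replicate 1, against 17.7% on 3L, and 10, or 20% (11.2 to 33.0%), overlapped replicate 2, against 21.9%. Regions met by both numbered 2, or 4% (1.10 to 13.5%), against 6.18%, and by neither 30, or 60% (46.2 to 72.4%), against 66.6%. These shares lay near those of the arm. The 20 combined regions met by either replicate had a median length of 2312 bp, and the 30 met by neither 1301 bp. Since 1 bp of overlap was enough, a longer region is met more easily, so such a difference is partly built in. Since the combined table stems from this series, it is not independent of the replicates.

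The 2 combined regions met by both replicates lay in the dense centre. One, at 17741660 to 17744158, had the highest combined score of the interval, 0.458, higher than 84.4% of the scores of its list. Replicate 1 covered 62.6% of it with a score of 0.589, and replicate 2 covered 74.4% with 0.612. The other, at 17808150 to 17816900, was the longest of the interval, at 8751 bp, with a score of 0.362. There replicate 1 covered 22.2% and replicate 2 covered 19.1%, at separate places, so no base was shared.

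Other long or high-scoring combined regions met regions of 1 replicate or of none. Such overlaps do not show which replicate's reads a combined region rests on. Those at 17681044 to 17683740, with the second highest score, 0.441, and at 17700208 to 17703860, of 3653 bp, met replicate 1, which covered 93.6% and 85.0% of them. Those at 17687706 to 17689016, with a score of 0.417, and at 17689206 to 17693266, of 4061 bp, met replicate 2, which covered 98.9% and 46.4%. Neither replicate met the second longest, 17717352 to 17722482, of 5131 bp, the one at 17672686 to 17676464, of 3779 bp, or those at 17802992 to 17804132 and 17678386 to 17679392, with scores of 0.413.

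The median length of the regions was above that of 3L in each list, and the median score was above it in replicate 1 alone. The median length was 1964 bp in replicate 1, against 1524 bp on the arm. It was 1593 against 1570 bp in replicate 2, and 1646 against 1607 bp among combined regions. The largest difference was in replicate 1, whose median length was above 83.5% of the lengths on the arm, with 8 of 10 regions at or above the median of the arm. In replicate 2 and the combined table it was above 52.9% and 52.0%. The authors' score, a value per region whose scale is not stated in the sources used here, had medians of 0.552, 0.545 and 0.362, against 0.521, 0.562 and 0.378 on the arm. At or above the median score of the arm were 6 of 10, 4 of 11 and 22 of 50 regions. The median score was above 69.9% of the scores on the arm in replicate 1. For replicate 2 this was 40.6%, and for combined regions 37.4%. Scores are compared within a list only.

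In replicate 1 the highest scores were 0.610 at 17698461 to 17703312, 0.606 at 17669795 to 17671130 and 0.589 at 17741711 to 17743275. The first of these was also its longest region, at 4852 bp, followed by 17765947 to 17768739 with 2793 bp and 17680954 to 17683567 with 2614 bp. In replicate 2 the highest was 0.721 at 17691382 to 17693270, higher than 90.8% of the scores of that list, then 0.612 at 17742300 to 17744303 and 0.590 at 17751303 to 17752914. Its longest were 17742300 to 17744303 with 2004 bp, 17691382 to 17693270 with 1889 bp and 17815227 to 17816926 with 1700 bp. All of these regions lay in the dense centre.

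Most scores beside the empty stretch at the high end were low for the list, though within the range of the rest of the interval. The high 200 kb held 3 combined regions, with scores of 0.333, 0.391 and 0.288, at 18075744 to 18076806, 18081796 to 18084188 and 18085998 to 18087642. They were higher than 14.3%, 52.0% and 3.35% of the scores of the list. Replicate 2 met the middle one with its own region, at 18081983 to 18083575 and a score of 0.588, and replicate 1 met none. On the low side of the stretch, the region at 17882204 to 17883910 had a score of 0.298, higher than 4.81% of the list. Median combined scores were 0.347 over the low, 0.369 over the middle and 0.333 over the high part, from 15, 33 and 3 regions, with 1 region counted in both the low and the middle part.

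**Figure D5:**
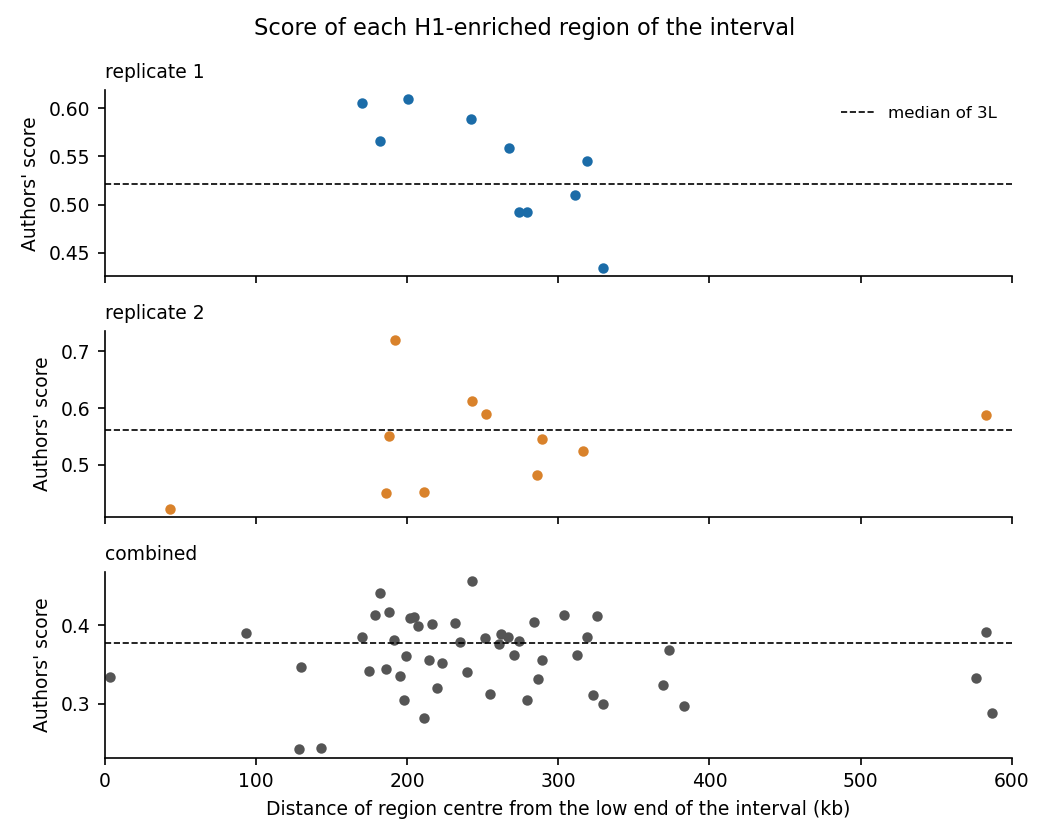
Authors' score of each region against the distance in kb of its centre from the low end of the interval, in a panel per list with its own scale, with the median score of the regions of 3L in that list as a dashed line. Scores lie on both sides of the line, at or above it for 6 of 10 regions of replicate 1, 4 of 11 of replicate 2 and 22 of 50 of the combined table.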

How the data were processed

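The 3 deposited lists give the start and end of each enriched region and a score, which is the authors' own value per region, of unstated scale. Per the file headers, positions are on FlyBase Release 5. The submitters' processing notes list Bowtie 0.12.7. How regions were called and with what threshold, whether the input entered, and how the combined table was made is not given in the sources used here. Looser calling would shorten empty stretches and raise covered shares. Depth is unknown. Nothing in the labels ties the replicates to separate collections of larvae, so their spread may be technical.

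The members and lists were chosen with earlier results of these data known. Covered shares count bases in at least 1 region. Windows of 600 kb were tiled from the interval to both ends of 3L, keeping full windows. Overlap meant at least 1 bp, and Wilson intervals cover counting of regions only. Named regions are combined regions met by both replicates, the 5 longest and 5 highest-scoring combined regions, the 3 of each kind per replicate, and the 5 longest empty stretches. No test was run, because the interval was chosen with earlier results known. Values are given for each replicate. Functions were tested on simulated lists. The Release 6 gene table gave names and gene order, so the other ecdysone genes planned were not analysed here, and no sequence is shown. Python 3.11.15, numpy 2.4.6, scipy 1.17.1 and matplotlib 3.10.9 were used.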

Additional observations from a re-analysis of the deposited data

How the results depend on the processing

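Of 50 values under alternatives, 20 were counted as moved and 30 were not. The limit was the spread between replicates, or 1.5 times for a count. The longest empty stretch, the share of bases covered in both replicates, the length of the central run and median scores have no such spread. None of these is a count. Changes of the stretch and the run were counted as moved although they were below 1.5 times. The share of bases in both replicates, 2.53%, was counted as moved with the filters by score and by length. Median scores weighted by region length were counted as not moved. Of the 30 not moved, 10 leave out a replicate, where with 2 replicates a small shift is largely fixed in advance and says nothing about stability. The low part exceeded the high part in each alternative run. Each run kept the limit of the low part within the dense centre, so this does not show a difference between the ends of the interval. With only regions whose score reached the median of their list, the replicate mean was 1.85% covered with 5 regions, 0.956 times the median window and above 46.2% of windows, the low part exceeded the high part by 1.45 percentage points, 4.59% of covered bases were shared and the longest empty stretch was 255623 bp. With regions of at least 2000 bp these values were 1.02%, 2 regions, 0.907 times, 46.2%, 1.04 points, 0% and 257275 bp. The combined table gave 17.5%, 50 regions and 11.5 points. Both filters remove regions by construction. Overlap of 50% of both regions left 1 combined region met by both replicates. Joining regions, sliding windows, and windows without the 2 next to each end moved none of the values run beyond these limits, nor did widening or narrowing the interval. Leaving out each replicate in turn gave 2.92 to 3.67% covered, 0.534 to 0.750 times the median window, above 10.3 to 38.5% of windows, 10 to 11 regions and a difference of 2.16 to 2.75 points. The central run, whose limits were added after seeing the data, measured 121 kb with a limit of 10 kb and 203 kb with 30 kb. No paired analysis was possible because no groups of samples were compared by a test; the differences within each replicate are those given for leaving out the other. The unknown read depth limits how far the lists can be set against each other.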
